A study of Mus musculus with 36 samples.

Results

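RNA on HA-tagged ribosomes of border-associated macrophages was compared with RNA recovered by a control antibody from mouse brain at steady state. The animals carried Ribo-tag, an allele of the ribosomal protein gene Rpl22 that gains an HA epitope once Cre has acted, together with Cre split into 2 fragments. The CCre fragment was under Cx3cr1 and the NCre fragment under Lyve1, so that the tag was directed to cells that had expressed both genes. The genotype of all Lyve1 libraries, IgG controls included, was CX3CR1-CCre+/-:Lyve1-NCre+/-:Ribo-tag+/-, and the labelled cell type was Lyve1+ macrophage. Brain tissue was homogenized, precipitates were made with anti-HA antibody and with IgG control from each brain, and their RNA was sequenced by MARS-seq, which reads the 3′ ends of transcripts. The 12 libraries, 6 HA and 6 IgG, were chosen by the words Lyve1_HA and Lyve1_IgG in the column names of the steady-state count table, out of 36 samples in the series. For comparison, 6 HA and 6 IgG libraries came from steady-state mice of genotype CX3CR1-CCre+/-:Sall1-NCre+/-:Ribo-tag+/- (labelled Sall1+ microglia), and 4 HA and 4 IgG libraries came from Lyve1 mice 12 h after intraperitoneal lipopolysaccharide (LPS, 2.5 mg/kg). Ages are not given in the labels used here.

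Border-associated macrophages live in the meninges, along blood vessels and in the choroid plexus, where they take up material by scavenger receptors and present antigen. Lyve1, a receptor for hyaluronan, marks those along vessels and in the leptomeninges. In the Ribo-tag method the tag is present in the chosen cells alone, but the precipitate is made from whole tissue, so RNA of other brain cells that sticks to antibody or beads is also recovered. The IgG precipitate measures that carried-over RNA. A ratio of HA to IgG therefore compares 2 mixtures, and a transcript that is abundant in brain and scarce in macrophages can still fall on either side of 0.

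Total counts were 603827 to 1495746 in the 6 HA libraries and 890640 to 1474838 in the 6 IgG libraries. HA libraries 1-2 and 2-2, named by the 2 numbers of their column, were the shallowest. The first principal component held 33.5% of the variance and separated all HA libraries from all IgG libraries, with HA 1-2 farthest out. The second, at 17.8%, did not. Each of the 6 HA libraries correlated best, in its deviations from the group mean, with an IgG library of the same first number. What the first number stands for is not given, so values within each first number are printed beside the leading genes. No 2 libraries of a group agreed within sampling noise, and each was counted as 1 sample. The labels do not say which libraries share an animal, so HA and IgG were not paired, and p-values measure the spread between these libraries, which may be technical. Values are counts scaled to TMM library size (CPM), with ranges and medians over 6 libraries unless stated. A log2 ratio is given ± its standard error from the edgeR fit. A gene passed at an adjusted p under 0.05.

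Of 9619 genes tested, 2472 (25.7%) passed, 1121 higher in HA (11.7%) and 1351 lower (14%). With same-group libraries of equal first number summed, leaving 3 sums a group, 1005 passed, 386 higher and 619 lower. At least 2-fold differences were found for 164 genes that were higher (1.7%) and 247 that were lower (2.57%). HA and IgG libraries did not overlap at all for 497 genes that were higher (5.17%) and 811 that were lower (8.43%). The median log2 ratio over all genes tested was 0.013. The shares of 11.7% and 14% are the background for the counts of list members below. The lists were chosen with earlier results of these data known, so counts set against these shares are descriptions and not tests. The genes higher in HA included macrophage genes, many subunits of the respiratory chain and of both ribosomes, and several secreted peptides. Those lower in HA included many large adhesion receptors, large ubiquitin ligases, motor proteins, laminins and ion channels. In bulk precipitates, fewer cells of a type and less RNA per cell cannot be told apart.

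The genes that drive the tag were scarce. Lyve1 had 3 to 12 counts in each HA library, against 0 to 2 counts in each IgG library, and lay under the filter on low counts. Summed over 6 libraries it had 37 counts in HA and 5 in IgG, a ratio of 9.20 per total count, with an exact 95% interval of 3.61 to 30.0 that covers counting error only. Cx3cr1, the fractalkine receptor gene, had 4.29 to 11.9 CPM (median 7.83) in HA libraries, against 1.60 to 8.14 CPM (median 4.27) in IgG libraries. These ranges overlapped, and the log2 ratio of 0.86 ± 0.73 did not pass (adjusted p = 0.406). Rpl22, the gene that bears the tag, had a log2 ratio of 0.19 ± 0.13, and Sall1, a microglial transcription factor gene, one of -0.29 ± 0.35, and neither passed.

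Pf4, a chemokine gene typical of border macrophages, was the marker with the widest separation. Its levels were 10.3 to 31.2 CPM (median 24) in HA libraries, against 0.670 to 2.04 CPM (median 1.59) in IgG libraries. The highest IgG library lay well under the lowest HA library, and the log2 ratio was 3.84 ± 0.43, adjusted p = 4.71e-07. Lyz2, the lysozyme gene of myeloid cells, had 38.7 to 116 CPM (median 47.4) in HA libraries, against 7.37 to 16.7 CPM (median 12.2) in IgG libraries. Its 2 highest values were the HA libraries with first number 2, and its log2 ratio was 2.46 ± 0.29, adjusted p = 7.30e-07. Within first numbers 1, 2 and 3 the log2 ratios, with 0.5 CPM added, were 3.09, 3.75 and 3.91 for Pf4 and 1.71, 2.97 and 2.1 for Lyz2. Cbr2, a carbonyl reductase gene, had 8.06 to 14.6 CPM (median 9.68) in HA libraries, against 0.678 to 6.15 CPM (median 4.28) in IgG libraries, also without overlap (log2 1.41 ± 0.38, adjusted p = 0.00643).

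Of 36 markers of border macrophages, 19 were listed and 8 had enough counts to test. Pf4, Lyz2 and Cbr2 were higher, against a background of 11.7% of all genes, 0 were lower, 5 did not pass, and the median log2 ratio of the 8 was 0.12. The other 11 listed markers fell under the filter, and together they had 339 counts in HA and 163 in IgG. For 9 of the 11 the exact interval of the ratio lay above 1. That interval pools the libraries and leaves out the spread between them. Of these 9, Mrc1 (adjusted p = 0.243), Maf (0.0969) and Slc40a1 (0.127) did not pass the edgeR test without the filter. Cd163, a scavenger receptor for haemoglobin complexes, had 3 to 11 counts in each HA library and 0 to 6 in each IgG library. Cd209f, a C-type lectin gene, had 1 to 7 counts in HA and 0 to 2 in IgG, and F13a1, the coagulation factor XIII A gene, had 2 to 14 counts in HA and 1 to 6 in IgG. Mrc1, the mannose receptor gene, had 30 counts over the HA libraries and 17 over the IgG libraries. P2rx7, an ATP-gated channel gene, had 31 in HA and 42 in IgG. Without the filter 6 of the 11 passed, Lyve1 among them, and the number of list members that were higher was 9 in place of 3. Cd163, Cd209f, F13a1, Mrc1 and P2rx7 were named after their values were seen. Such counts limit the precision of these ratios.

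**Figure D1:**
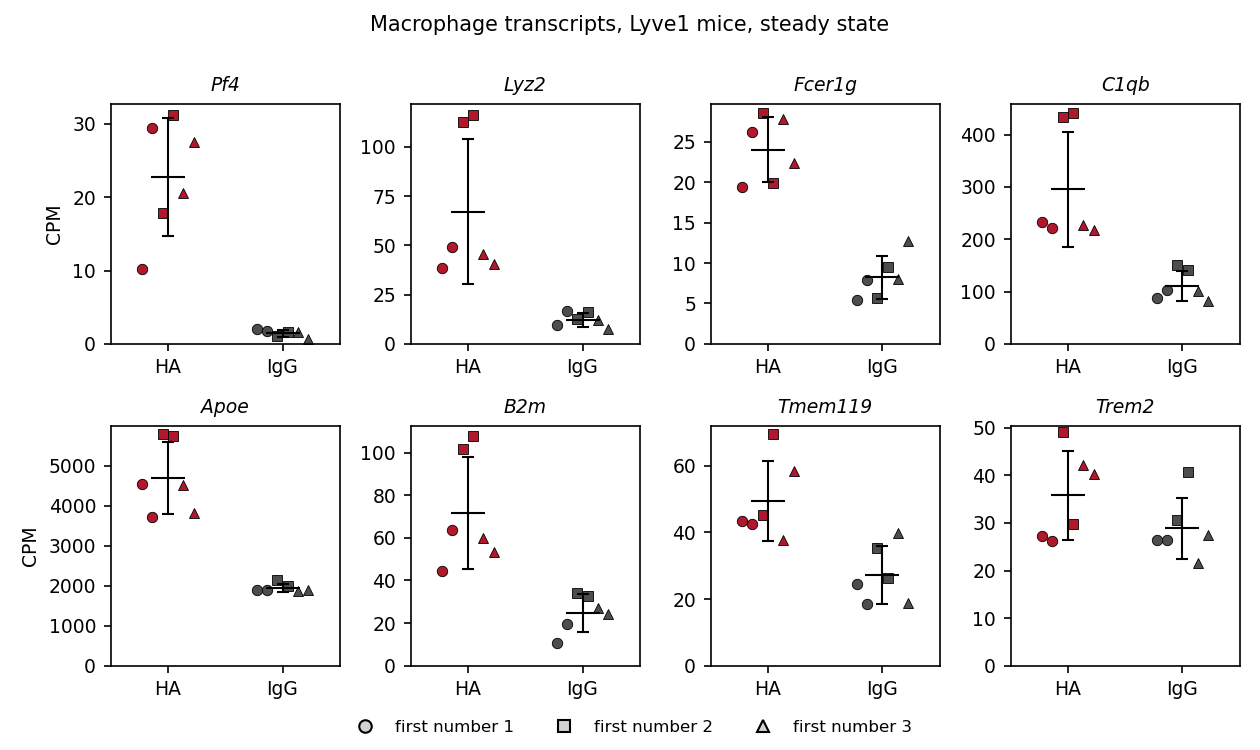
CPM of 8 macrophage transcripts in the 6 HA (left) and 6 IgG (right) libraries of Lyve1 mice at steady state, each panel with its own linear axis from 0. Points are libraries, their shape gives the first number of the library name, and bars show mean ± SD (n = 6). Pf4, Lyz2, Fcer1g, C1qb, Apoe and B2m did not overlap between HA and IgG, while Tmem119 and Trem2 did.

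Of 21 tested pan-macrophage genes, 14 were higher and 0 lower, and the median log2 ratio was 0.80. Fcer1g, the common signalling chain of Fc receptors, had 19.4 to 28.5 CPM (median 24.2) in HA libraries, against 5.43 to 12.7 CPM (median 7.94) in IgG libraries (log2 1.53 ± 0.24, adjusted p = 2.45e-05). C1qb, a chain of complement C1q, had 217 to 441 CPM (median 230.1) in HA libraries, against 82.4 to 151 CPM (median 102) in IgG libraries. Both HA libraries with first number 2 were the highest for C1qb, and its log2 ratio was 1.42 ± 0.24, adjusted p = 1.47e-04. C1qc (1.23 ± 0.17), the calcium-binding protein gene Aif1 (1.38 ± 0.33) and the endosomal glycoprotein gene Cd68 (1.42 ± 0.34) also rose.

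The lists for microglia and macrophages overlap. Of 23 tested microglial genes, 12 were higher and 0 lower, with a median of 0.65. Ltc4s, leukotriene C4 synthase, rose by 0.94 ± 0.20 on the log2 scale and Tmem119, a membrane protein gene of microglia, by 0.87 ± 0.20. Tmem119 had 37.6 to 69.4 CPM (median 44.2) in HA libraries, against 18.4 to 39.9 CPM (median 25.4) in IgG libraries, so that HA and IgG overlapped. Trem2, a lipid receptor gene of microglia, had 26.2 to 49.1 CPM (median 35.1) in HA libraries, against 21.5 to 40.7 CPM (median 27.0) in IgG libraries and did not pass (log2 0.35 ± 0.19, adjusted p = 0.182).

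Apoe, the lipid carrier made by macrophages and astrocytes, was the most abundant of the macrophage genes named here. Its levels were 3704 to 5797 CPM (median 4537) in HA libraries, against 1853 to 2131 CPM (median 1890.4) in IgG libraries. No IgG library came near the lowest HA library, and the log2 ratio was 1.27 ± 0.12, adjusted p = 1.07e-07. B2m, the light chain of MHC class I, had 44.4 to 108 CPM (median 61.9) in HA libraries, against 10.9 to 34.1 CPM (median 25.6) in IgG libraries (log2 1.56 ± 0.29, adjusted p = 2.35e-04). Of 8 tested MHC class I genes B2m was the 1 that passed. Ifitm3, an antiviral membrane protein gene, was likewise separated, with 13.4 to 28.3 CPM (median 20.1) in HA libraries, against 2.01 to 9.57 CPM (median 6.36) in IgG libraries (log2 1.68 ± 0.34, adjusted p = 4.34e-04). Of 19 tested lysosomal genes 7 were higher (36.8%, against 11.7% of all genes) and 2 lower (10.5%, against 14%). Among those that rose were Grn (progranulin, 0.81 ± 0.16), Ctsz (cathepsin Z, 0.80 ± 0.17) and Cd63 (a tetraspanin of endosomes, 0.75 ± 0.14).

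Of 6 tested MHC class II genes 1 was higher and 0 were lower, and that call rested on a single library. Cd74, the invariant chain gene, passed (log2 1.42 ± 0.41, adjusted p = 0.0131), with 11.2 to 88.2 CPM (median 15.8) in HA libraries, against 7.18 to 23.8 CPM (median 9.58) in IgG libraries. The 88.2 CPM came from HA library 2-1, and without that library the log2 ratio was 0.64 (adjusted p = 0.16). Its call was also lost in a fit of the Lyve1 libraries alone (1.46, adjusted p = 0.0847) and with libraries summed by first number (1.5, adjusted p = 0.118). H2-Ab1, a class II beta chain gene, had 168 CPM in the same library and 4.56 to 38.3 CPM in the other 5 HA libraries, against 6.15 to 29.5 CPM in IgG. Its log2 ratio of 1.33 ± 0.65 did not pass and was -0.18 without HA 2-1. H2-Aa, the alpha chain gene, reached 93.5 CPM in HA, and its log2 ratio of 1.10 ± 0.54 did not pass.

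The gelatinase genes Mmp9 and Mmp2, which encode proteases of collagen and matrix, had large and uneven ratios. Mmp9 had 12.5 to 333 CPM (median 37.6) in HA libraries, against 2.01 to 5.27 CPM (median 3.19) in IgG libraries (log2 4.77 ± 0.77, adjusted p = 1.38e-04). Mmp2 had 6.84 to 133 CPM (median 33.4) in HA libraries, against 2.27 to 6.38 CPM (median 4.38) in IgG libraries (log2 3.33 ± 0.57, adjusted p = 1.69e-04). HA library 2-2 held the highest value of Mmp9. Within first numbers 1, 2 and 3 the log2 ratios were 1.88, 5.87 and 3.62 for Mmp9 and 1.19, 4.21 and 2.76 for Mmp2. Mmp9 is itself 1 of 6 listed neutrophil genes. The summed level of the other 5, per library total, was 8.33 to 71.5 CPM in HA and 0.678 to 19.1 CPM in IgG, with overlap. Camp (log2 1.46 ± 0.62) and S100a9 (1.74 ± 0.77), both of the neutrophil list, did not pass. Under the filter, S100a8 had 37 counts over the HA libraries and 10 over the IgG libraries, Ngp had 23 in HA and 5 in IgG, and Lcn2 had 8 in HA and 4 in IgG. Without the filter S100a8 (adjusted p = 0.0168) and Ngp (0.0285) passed. The part of neutrophil RNA in the Mmp9 result was not tested.

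The remaining genes with the largest ratios belong to no macrophage list. Sh3bgrl, a small SH3-binding-like protein gene, had 10.7 to 42.5 CPM (median 15.8) in HA libraries, against 1.60 to 7.90 CPM (median 4.87) in IgG libraries (log2 2.1 ± 0.47, adjusted p = 0.00139). Hnrnpa3, an RNA-binding protein gene, had a log2 ratio of 2.07 ± 0.65. The call of Hnrnpa3 was lost without the shallow libraries (1.97, adjusted p = 0.0590) and with libraries summed by first number (adjusted p = 0.166). Calb1, a calcium buffer of Purkinje cells, had 7.17 to 32.7 CPM (median 11.1) in HA libraries, against 1.59 to 6.15 CPM (median 3.38) in IgG libraries (log2 1.88 ± 0.46, adjusted p = 0.00299). The proteoglycan gene Spock3 (1.62 ± 0.32) and Kcnip4 (1.53 ± 0.37), which encodes a partner of potassium channels, also rose and are known from neurons. The summed level of 13 listed cerebellar markers was 723 to 2643 CPM in HA and 581 to 1715 CPM in IgG, and its part in the Calb1 result was not tested.

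Set against the 12 Sall1 libraries in the same fit, 21 genes (0.218%) had a ratio that differed between the lines. Pf4 was the 1 with the larger ratio in Lyve1 mice (0.0104%), at 3.84 ± 0.43 against 0.16 ± 0.44 in Sall1 mice (difference 3.68 ± 0.65, adjusted p = 0.00295). The other 20 (0.208%) had smaller ratios in Lyve1 mice. They were led by the fructose transporter gene Slc2a5 (difference -2.61 ± 0.48, adjusted p = 0.00434), the phagocyte gene Bin2 (-2.41 ± 0.51, adjusted p = 0.0245), Trem2 (-2.17 ± 0.26, adjusted p = 1.97e-05), Tmem119 (-2.02 ± 0.28, adjusted p = 8.56e-05) and the lysosomal membrane protein gene Laptm5 (-2.0 ± 0.27, adjusted p = 8.56e-05). Lyz2, at 2.46 ± 0.29 in Lyve1 mice and 1.43 ± 0.30 in Sall1 mice, did not pass the test of the difference (adjusted p = 0.76). For Bin2 the call was lost under several settings, with adjusted p between 0.0504 and 0.274, and summing by first number ended those of Slc2a5 (adjusted p = 0.119) and Laptm5 (adjusted p = 0.0516). With the 12 libraries of each line summed by first number, 4 genes passed.

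Promoters of macrophage genes often hold sites for the ETS factor PU.1, whose core was searched as GAGGAA on both strands. The 3 promoters with the smallest p among macrophage genes that rose and hold this core in the 100 bases before the start are shown, with the core in capitals, from 100 bases before to 20 bases after the RefSeq start on GRCm38.p6. They are chr5:90772335-90772454, plus strand for Pf4, chr4:136886181-136886300, minus strand for C1qb, and chr17:35176033-35176152, minus strand for Aif1. A capital TTCCTC is the core on the other strand.
Pf4: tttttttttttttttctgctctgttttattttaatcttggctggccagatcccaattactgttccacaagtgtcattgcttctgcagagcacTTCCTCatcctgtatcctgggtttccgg
C1qb: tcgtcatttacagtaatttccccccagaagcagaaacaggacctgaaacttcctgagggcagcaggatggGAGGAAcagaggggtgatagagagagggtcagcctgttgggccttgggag
Aif1: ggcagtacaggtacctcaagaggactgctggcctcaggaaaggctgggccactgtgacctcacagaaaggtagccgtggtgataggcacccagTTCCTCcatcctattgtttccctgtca
The core was present in 7 of 28 tested macrophage, microglial and border macrophage genes with 1 annotated start. It was in 8.26% of all tested promoters and in 9.58% of all 22862 promoters. It was also in 8 of 50 ribosomal protein genes, 8 of 56 mitochondrial ribosome genes and 0 of 20 large adhesion receptors. These matches describe the sequences and show no binding.

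Oxidative phosphorylation, the mitochondrial pathway that moves electrons through membrane complexes and drives ATP synthase, had the most members that were higher in HA. Of 79 tested genes 54 were higher, 8 were lower and 17 did not pass, and the median log2 ratio was 0.56. For 25 of the 79 the groups did not overlap, in either direction. Over all genes tested, 5.17% were higher without overlap and 8.43% lower. Cox5b, a subunit of cytochrome c oxidase, had 1226 to 1923 CPM (median 1705) in HA libraries, against 706 to 1023 CPM (median 866) in IgG libraries. Every HA library lay above every IgG library, and the log2 ratio was 0.91 ± 0.13, adjusted p = 8.00e-06. Ndufb2 (0.86 ± 0.14) and Ndufa6 (0.70 ± 0.11), accessory subunits of complex I, Cox6a1 (0.60 ± 0.11), Atp5h of ATP synthase (0.78 ± 0.15) and Uqcr11 of complex III (0.74 ± 0.16) rose as well.

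The members of this list that fell were Sdha, Ndufs1, Ndufv1, Ndufa10, Cyc1, Uqcrc1, Atp5b and the assembly factor gene Uqcc1. Sdha, the flavoprotein of succinate dehydrogenase, had 264 to 323 CPM (median 308) in HA libraries, against 438 to 589 CPM (median 531) in IgG libraries. Its groups did not overlap either, in the other direction (log2 -0.81 ± 0.12, adjusted p = 2.25e-05). The median genomic span was 6759 bp for the 54 that were higher and 20490 bp for the 8 that were lower. With libraries summed by first number, 24 were higher and 3 lower.

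The promoters of 3 genes of this list are shown for the ETS-type core CCGGAAG, searched on both strands, which shares the letters GGAA with the PU.1 core. They are chr5:115348939-115349058, minus strand for Cox6a1, chr11:115419900-115420019, minus strand for Atp5h, and chr10:80406802-80406921, minus strand for Uqcr11, chosen and drawn as before.
Cox6a1: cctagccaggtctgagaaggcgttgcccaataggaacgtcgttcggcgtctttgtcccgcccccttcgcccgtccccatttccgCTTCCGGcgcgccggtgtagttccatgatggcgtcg
Atp5h: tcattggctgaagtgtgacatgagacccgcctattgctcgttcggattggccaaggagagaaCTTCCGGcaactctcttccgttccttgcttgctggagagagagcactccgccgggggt
Uqcr11: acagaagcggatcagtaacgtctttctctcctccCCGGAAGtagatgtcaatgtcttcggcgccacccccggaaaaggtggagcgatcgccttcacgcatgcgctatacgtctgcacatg
The core was in 8 of 61 tested promoters of this list, in 10.1% of all tested promoters and in 4.66% of all promoters. It was also in 12 of 56 mitochondrial ribosome genes, 10 of 50 ribosomal protein genes, 1 of 28 macrophage genes and 1 of 20 large adhesion receptors.

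Cytosolic ribosomal protein genes were higher in 27 of 78 cases and lower in 0, and 51 did not pass. Their median log2 ratio was 0.53. Rpl18, of the large subunit, had 533 to 722 CPM (median 599) in HA libraries, against 294 to 433 CPM (median 359) in IgG libraries (log2 0.76 ± 0.15, adjusted p = 3.67e-04). Rplp2 of the ribosomal stalk (0.77 ± 0.18), Rpl10a (0.86 ± 0.20), Rpl36 (0.82 ± 0.20) and Rps10 (0.63 ± 0.15) rose too. The count depended on the fit. It was 49 in a fit of the Lyve1 libraries alone, 43 with the first number as a block, 17 without the shallow HA libraries 1-2 and 2-2, and 6 with libraries summed by first number, and many members have near-identical copies in the genome.

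Transcripts of ribosomal proteins begin with a pyrimidine run (5′ TOP), which couples their translation to growth signals. The sequence CTTTC was searched on the sense strand from 10 bases before to 20 bases after the start. It was in 13 of 50 tested ribosomal protein genes, in 2.93% of all tested promoters and in 3.76% of all promoters. The 3 with the smallest p are shown with that sequence in capitals, chr7:45717971-45718090, plus strand for Rpl18, chr7:141447551-141447670, plus strand for Rplp2 and chr17:27635225-27635344, minus strand for Rps10.
Rpl18: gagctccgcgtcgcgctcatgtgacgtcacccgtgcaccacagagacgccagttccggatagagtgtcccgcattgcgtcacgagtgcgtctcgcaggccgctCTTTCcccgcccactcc
Rplp2: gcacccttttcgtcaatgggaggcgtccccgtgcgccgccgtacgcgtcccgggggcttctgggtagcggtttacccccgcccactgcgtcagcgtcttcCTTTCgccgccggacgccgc
Rps10: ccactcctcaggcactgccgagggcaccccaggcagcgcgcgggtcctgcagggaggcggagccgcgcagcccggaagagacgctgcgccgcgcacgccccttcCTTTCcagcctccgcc

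The mitochondrial ribosome, which translates the few proteins that mitochondria encode, behaved likewise, with 30 of 67 genes higher, 5 lower and a median of 0.38. Mrpl54 had 125 to 185 CPM (median 148) in HA libraries, against 73.7 to 100.5 CPM (median 80.6) in IgG libraries (log2 0.84 ± 0.13, adjusted p = 2.53e-05). Mrps34 (0.65 ± 0.11) and Mrps24 (0.77 ± 0.13) rose, while Mrps9 fell, with 108 to 123 CPM (median 112) in HA libraries, against 164 to 216 CPM (median 199) in IgG libraries (log2 -0.78 ± 0.12, adjusted p = 1.53e-05). Mrpl37, Mrpl38, Mrpl45 and Mrps27 were the other 4 that fell. Summing by first number left 9 higher and 3 lower.

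Translation factors split. Of 34 tested, 10 were higher (29.4%, against 11.7% of all genes) and 6 lower (17.6%, near the 14% of all genes). Eif5a, a factor for elongation past difficult sequences, rose by 0.52 ± 0.11 and Naca, the nascent chain complex subunit, by 0.63 ± 0.13. Eef1d, an exchange factor of elongation, fell with 120.5 to 153 CPM (median 141) in HA libraries, against 199 to 279.5 CPM (median 234) in IgG libraries (log2 -0.78 ± 0.14, adjusted p = 1.97e-04). Subunits of the initiation factor eIF3 lay on both sides. Eif3e, Eif3g and Eif3m were higher and Eif3b, Eif3d and Eif3i lower, and Eif3e had 22.8 to 60.5 CPM (median 30.6) in HA libraries, against 8.14 to 13.6 CPM (median 12.1) in IgG libraries (log2 1.55 ± 0.32, adjusted p = 6.38e-04).

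Of 78 RNA-binding and splicing genes, 18 were higher (23.1%, against 11.7% of all genes) and 1 was lower. Sf3b5, the smallest subunit of the U2 splicing complex SF3b, had 167 to 244 CPM (median 199) in HA libraries, against 77.3 to 113 CPM (median 100.1) in IgG libraries (log2 1.02 ± 0.14, adjusted p = 4.88e-06). Hnrnpab (0.48 ± 0.11) and the Sm protein gene Snrpf (0.78 ± 0.18) rose. Prpf8, the large scaffold at the centre of the spliceosome, was the 1 that fell, with 118 to 191 CPM (median 155) in HA libraries, against 298 to 449.6 CPM (median 386) in IgG libraries (log2 -1.27 ± 0.17, adjusted p = 3.32e-06). The 2 genes encode parts of the same machine, and their HA and IgG libraries were fully separated in opposite directions.

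**Figure D2:**
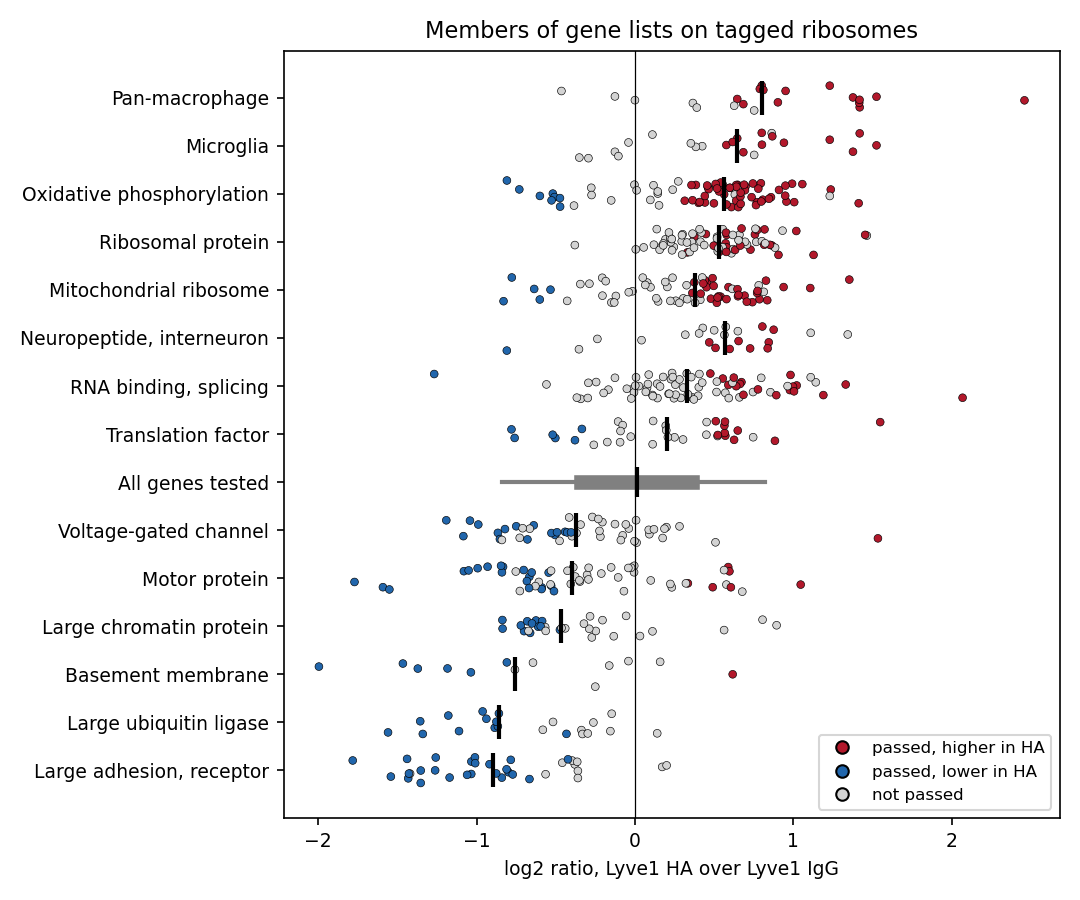
Log2 ratio of HA over IgG in Lyve1 mice (horizontal axis) for each tested member of 14 gene lists (points), with the list median as a vertical tick and, for all 9619 genes, a thick bar from the 25th to the 75th percentile and a thin bar from the 5th to the 95th. Of the 79 oxidative phosphorylation genes 54 passed above 0, and of the 34 large adhesion and receptor genes 24 passed below 0.

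Several peptides secreted by neurons were higher in HA. Among 22 neuropeptide and interneuron genes 9 were higher and 1, Reln, was lower, with a median of 0.57. Cck, which encodes cholecystokinin, had 1404 to 1502 CPM (median 1468) in HA libraries, against 759 to 856 CPM (median 811) in IgG libraries. The HA libraries lay within a narrow band above all IgG libraries (log2 0.84 ± 0.096, adjusted p = 5.44e-07). Npy, neuropeptide Y (0.84 ± 0.14), Sst, somatostatin (0.88 ± 0.16), and Oxt, oxytocin (0.73 ± 0.15), rose by similar amounts.

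Ttr, the thyroxine carrier of the choroid plexus, had 1831 to 2891 CPM (median 2417) in HA libraries, against 921 to 1454 CPM (median 1105) in IgG libraries (log2 1.08 ± 0.12, adjusted p = 5.44e-07). Of 10 tested genes of choroid plexus and ependyma, Ttr among them, 3 were higher and 0 lower, with a median of 0.26. A ratio above 0 was found for 6 of the 10, and among the others Kl (-0.61 ± 0.35) did not pass. Of 12 tested fibroblast and meningeal genes 6 were higher and 0 lower. Ptgds, prostaglandin D synthase (0.71 ± 0.098), Igfbp2 (0.76 ± 0.13) and Apod, a lipid carrier (0.69 ± 0.14), had the smallest p. Without HA library 2-2, 3 of these 12 were higher. Under the filter, the collagen gene Col3a1 of the same list had 7 counts over the HA libraries and 31 over the IgG libraries. Without the filter Col3a1 passed as lower in the edgeR test (adjusted p = 0.0433). Of 19 tested genes for entry and folding of proteins in the endoplasmic reticulum 7 were higher and 1 was lower, with a median of 0.37. Sec61b, of the channel through which secreted proteins enter, rose (0.74 ± 0.14). The chaperone gene Calr was the 1 that fell (-0.86 ± 0.16), while the chaperone gene Hspa5 was among the 7.

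Markers of neurons passed in both directions. The neuronal list had 3 of 22 members higher (13.6%, against 11.7% of all genes) and 5 lower (22.7%, against 14%), with a median of -0.054. Nrgn, a small calmodulin-binding protein of dendrites, had 6312 to 7542 CPM (median 7289.5) in HA libraries, against 3299 to 4561 CPM (median 4035) in IgG libraries (log2 0.84 ± 0.12, adjusted p = 4.92e-06). Camk2b, a kinase of the same compartment, fell (log2 -0.72 ± 0.13, adjusted p = 1.76e-04), as did Tubb3, neuronal tubulin (-0.76 ± 0.17), and Nefh, the heavy neurofilament (-0.73 ± 0.17), whose call was lost with libraries summed by first number (adjusted p = 0.0503). The summed level of the 22 neuronal markers was 18522 to 20676 CPM in HA and 17186 to 19899 CPM in IgG. That of the 28 microglial markers was 1587 to 2511 CPM in HA and 983 to 1369 CPM in IgG. Neuronal RNA was thus present in both precipitates at overlapping levels. Of 15 tested astrocyte markers 0 were higher and 1 was lower (6.67%). Of 14 tested oligodendrocyte markers 1 was higher (7.14%) and 1 lower (7.14%). Against 11.7% and 14% of all genes, such small counts do not set these lists apart. The myelin gene Mag fell (-0.86 ± 0.16). Mobp, the 1 that rose (0.49 ± 0.15), lost its call with libraries summed by first number (adjusted p = 0.112).

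Large adhesion and guidance receptors were the list most often lower in HA. Of 34 tested, 24 were lower, against a background of 14%, 0 were higher and 10 did not pass, and the median log2 ratio was -0.90. Lrp1, an endocytic receptor for Apoe and many other ligands, had 245 to 353 CPM (median 335) in HA libraries, against 766 to 942 CPM (median 857) in IgG libraries. The highest HA library held less than the lowest IgG library by a wide margin, and the log2 ratio was -1.44 ± 0.15, adjusted p = 1.26e-07. Plxnb1, a semaphorin receptor gene, had 31.9 to 46.4 CPM (median 36.1) in HA libraries, against 102 to 122 CPM (median 105) in IgG libraries (log2 -1.54 ± 0.20, adjusted p = 3.05e-06). Plxnd1 (-1.35 ± 0.17), the cadherin gene Celsr2 (-1.43 ± 0.21) and the giant cadherin gene Fat1 (-1.78 ± 0.29) fell as well. Without the shallow libraries 18 of the list were lower.

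**Figure D3:**
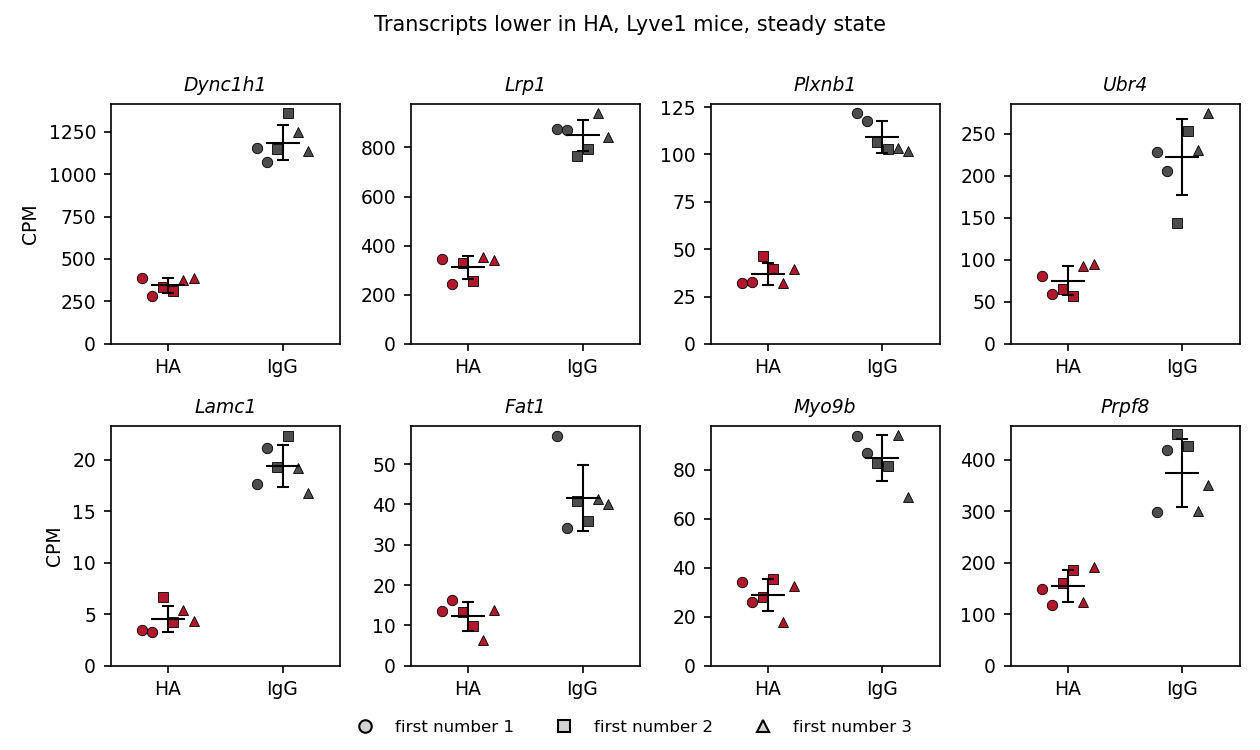
CPM of 8 transcripts lower in HA than in IgG precipitates. Shown are the 6 HA (left) and 6 IgG (right) libraries of Lyve1 mice at steady state, each panel with its own linear axis from 0. Points are libraries, shapes give the first number of the library name, and bars show mean ± SD (n = 6). The groups did not overlap for any of the 8.

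Motor proteins carry cargo along microtubules and actin. Of 56 tested motor genes, 20 were lower and 6 higher. Dync1h1, the heavy chain of cytoplasmic dynein, had 283 to 387 CPM (median 356) in HA libraries, against 1069 to 1358 CPM (median 1151) in IgG libraries (log2 -1.77 ± 0.18, adjusted p = 1.26e-07). Kif1a, a kinesin of synaptic vesicle transport (-1.08 ± 0.14), and the myosin genes Myo9b (-1.55 ± 0.21) and Myo7a (-1.59 ± 0.28) fell. The 6 that rose were Dctn2, Dctn3, Dctn5, Dctn6, Dynlt3 and Myh7, of which 4 encode subunits of dynactin. Dctn1, its largest subunit, and Dctn4 fell. The median genomic span was 15851 bp for the 6 and 65310 bp for the 20. Not every list was so ordered, since in the proteasome list it was 16249 bp for the 7 that were higher and 8391 bp for the 3 that were lower, and in the neuronal list 52078 bp for 3 and 12219 bp for 5.

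Of 21 large ubiquitin ligases and related genes, 12 were lower and 0 higher, with a median of -0.86. Ubr4, which reads destabilizing protein ends, had 56.7 to 95.3 CPM (median 73.3) in HA libraries, against 144 to 275 CPM (median 230.0) in IgG libraries (log2 -1.56 ± 0.18, adjusted p = 7.51e-07). Mycbp2, a ligase of axons and synapses, had a log2 ratio of -1.34 ± 0.17, and Cul9, a cullin gene, one of -1.18 ± 0.18. Of 30 large chromatin proteins 12 were lower and 0 higher, among them the histone methyltransferase gene Setd2 (-0.84 ± 0.18), the remodeller gene Chd5 (-0.62 ± 0.13) and Smarca4 (-0.65 ± 0.14). In the proteasome list, which holds smaller subunits of the same degradation route, 7 of 36 were higher (19.4%, against 11.7% of all genes). The 7 were led by Psmd13 (0.59 ± 0.13), and 3 of the 36 were lower (8.33%, against 14%).

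Laminins are the main polymers of basement membrane, and 5 of their genes fell. Of 13 tested basement membrane genes 6 were lower and 1, Sparc (0.62 ± 0.14), was higher. The 6 were Lamc1, Lamb1, Lamb2, Lama1, Lama2 and Agrn. Lamc1, which contributes a chain to most laminins, had 3.27 to 6.63 CPM (median 4.27) in HA libraries, against 16.7 to 22.3 CPM (median 19.2) in IgG libraries (log2 -2.0 ± 0.26, adjusted p = 3.05e-06). Lamb1 (-1.18 ± 0.23) and Lamb2 (-1.04 ± 0.20) fell less. Of 7 tested markers of mural cells, which make basement membrane, 3 were lower and 0 higher. Cspg4 (-1.37 ± 0.26), also a marker of oligodendrocyte precursors, and the receptor genes Pdgfrb (-1.28 ± 0.32) and Notch3 (-1.03 ± 0.38) fell, while Tagln (0.72 ± 0.37), Vtn (0.36 ± 0.15) and Higd1b (0.29 ± 0.29) had ratios above 0 and did not pass. The call of Notch3 was lost without the shallow libraries (adjusted p = 0.141) and with libraries summed by first number (0.158). It was also lost in several fits that left out 1 library. The overlapping summed levels of the 10 listed mural markers were 123 to 238 CPM in HA and 165 to 243 CPM in IgG. Their part in the laminin result was not tested.

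Voltage-gated channels were lower in 16 of 47 cases and higher in 1, Kcnip4. Scn8a, a sodium channel gene of neurons, had 52.3 to 89.5 CPM (median 55.7) in HA libraries, against 99.2 to 159 CPM (median 147) in IgG libraries (log2 -1.04 ± 0.22, adjusted p = 6.73e-04). Cacna2d3, an accessory subunit of calcium channels (-0.85 ± 0.17), and Hcn3, a pacemaker channel gene (-1.19 ± 0.26), fell. In the list of giant cytoskeletal proteins 6 of 29 were lower (20.7%, against 14% of all genes) and 0 higher. Map1b, a microtubule-associated protein of axons (-1.05 ± 0.14), and Bsn, the presynaptic scaffold Bassoon (-0.57 ± 0.12), were among them.

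The lowest ratio among the 2472 genes that passed was that of Atrip, whose protein binds the kinase Atr at damaged DNA, with 20.5 to 139 CPM (median 72.0) in HA libraries, against 487 to 1343 CPM (median 616) in IgG libraries (log2 -3.38 ± 0.73, adjusted p = 0.00192). Trex1, an exonuclease gene, had 28.5 to 73.4 CPM (median 52.6) in HA libraries, against 152 to 349.7 CPM (median 223) in IgG libraries (log2 -2.25 ± 0.66, adjusted p = 0.016). The 2 genes are neighbours in the RefSeq annotation, without overlap, and how reads between them were assigned is not given. Cep290, of the cilium base, had a log2 ratio of -2.24 ± 0.76, adjusted p = 0.0321. With libraries summed by first number the calls of all 3 were lost (adjusted p between 0.0775 and 0.178). Those of Trex1 (0.0578) and Cep290 (0.0837) were also lost without the shallow libraries. That of Cep290 was lost in 5 of the 12 fits that left out 1 library. All 3 were also lower in HA in LPS-treated Lyve1 mice, whose libraries these calls did not use. Atrip had 47.2 to 218 CPM in LPS HA, against 3039 to 5513 CPM in LPS IgG. The values were 67.1 to 122 against 478 to 795 CPM for Trex1 and 1.66 to 4.42 against 22.9 to 94.4 CPM for Cep290. Further genes with large ratios below 0 were Igf2r (-1.74 ± 0.30), the receptor that sorts enzymes to lysosomes, Rad50 of DNA repair (-1.69 ± 0.34), the lipid transporter genes Abca8a (-1.63 ± 0.45) and Abca5 (-1.60 ± 0.27), Sh3tc2 (-1.55 ± 0.35) and Dennd4a (-1.55 ± 0.25). The call of Abca8a was lost with libraries summed by first number (adjusted p = 0.0503). Igf2r had 8.50 to 16.1 CPM (median 10.9) in HA libraries, against 31.1 to 52.9 CPM (median 37.2) in IgG libraries.

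Genes that span little of the genome were more often higher in HA, and genes with a long span more often lower. The span, from the first to the last annotated base with introns, came from RefSeq on GRCm38.p6 and was available for 9600 of the 9619 genes, which were divided into 10 classes of equal size. The counts were made on mm9, so only lengths and the promoters shown were taken from that annotation. Span was used in place of protein length, which was not analysed here. In the shortest class, 64 to 4217 bp, 30.8% of 960 genes were higher and 3.44% lower, with a median log2 ratio of 0.35. In the longest class, from 130966 bp, 2.60% were higher and 22.5% lower, with a median of -0.21. The share that was higher fell at each step from the shortest to the longest class. The median span was 9699 bp for genes higher in HA, 41160 bp for genes lower and 23580 bp for those that did not pass.

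The same difference was seen library by library. The median log2(CPM + 0.5) of the shortest class minus that of the longest was 0.95 to 1.21 in Lyve1 HA libraries, against 0.43 to 0.79 in Lyve1 IgG libraries. It was 1.06 to 1.51 in Sall1 HA and 0.69 to 0.94 in Sall1 IgG libraries. HA and IgG did not overlap in either line. The median log2 ratio in Sall1 mice was 0.24 in the shortest class and -0.21 in the longest class. In Lyve1 mice after LPS it was 0.18 and -0.30. Level moved with span. The median gene of the shortest class had 51.8 CPM and that of the longest 29.0 CPM over the 12 Lyve1 libraries. Among genes at or below the median CPM, the shortest class had a median log2 ratio of 0.30 and the longest one of -0.15.

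**Figure D4:**
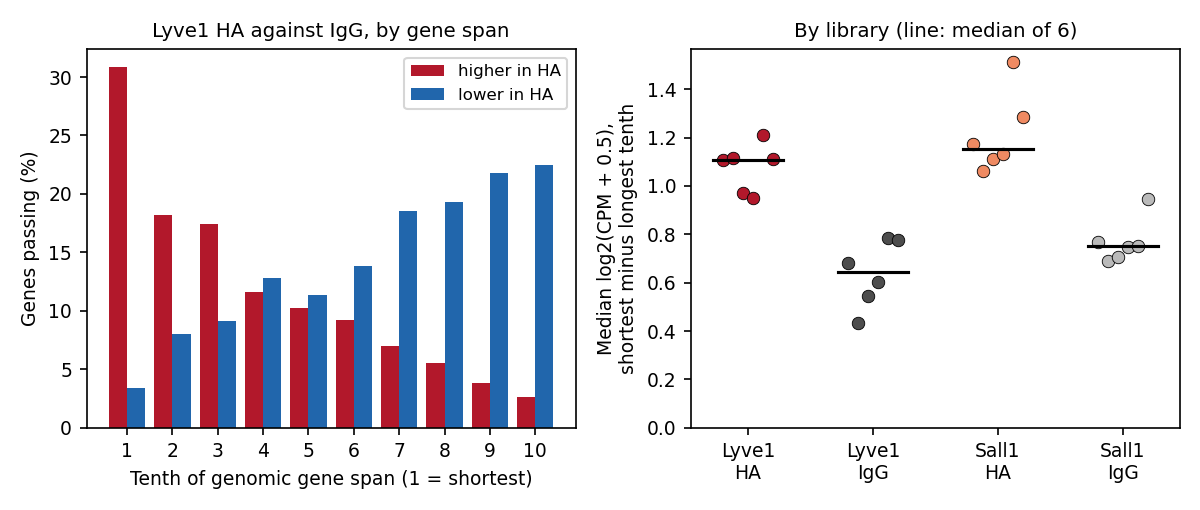
Left, the percentage of genes that passed higher or lower in Lyve1 HA in each of 10 classes of genomic gene span, from shortest (1) to longest (10). Right, for each steady-state library, the median log2(CPM + 0.5) of the shortest class minus that of the longest, with lines at the median of 6. All HA libraries lay above all IgG libraries of the same line.

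The 8 libraries of LPS-treated Lyve1 mice were not used in the steady-state contrast. Of 9680 genes tested in their table, 931 (9.62%) passed between LPS HA and LPS IgG, 505 higher (5.22%) and 426 lower (4.4%). Of the 1121 genes higher at steady state, 1116 were tested there and 80.3% had a ratio above 0. Of the 1116, 273 passed as higher (24.5%, against 5.22% of all genes). Of the 1351 lower genes, 1346 were tested and 75.9% had a ratio below 0. Of the 1346, 190 passed as lower (14.1%, against 4.4%). The share of all genes on each side of 0 after LPS is not given here, and the part of gene span in the shared direction was not tested. The 273 were 54.1% of the 505 and the 190 were 44.6% of the 426. In the opposite direction 6 and 3 passed.

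Several macrophage genes also passed after LPS, and others did not. Pf4 stood at 3.62 ± 0.48 (adjusted p = 8.13e-06), Lyz2 at 2.62 ± 0.50 (0.00129), Apoe at 1.10 ± 0.15 (9.95e-06) and C1qb at 1.61 ± 0.26 (4.75e-04). B2m (0.66 ± 0.27, adjusted p = 0.118) and Cbr2 (1.01 ± 0.47, adjusted p = 0.169) did not pass. Ttr (1.26 ± 0.14) and Cck (0.70 ± 0.13) did. The ratios of Mmp9 (3.53 ± 1.10, adjusted p = 0.0524) and Mmp2 (4.04 ± 1.30, 0.0601) were large and did not pass. Calb1 (0.0093 ± 0.49), Eif3e (-0.49 ± 0.33) and Spock3 (-0.16 ± 0.45) did not pass. Of 79 oxidative phosphorylation genes 29 were higher and 3 lower after LPS, and Sdha fell again (-0.72 ± 0.14). Of 78 ribosomal protein genes 1 was higher and 1 lower, and the median was 0.00010, against 0.53 at steady state. Whether the list differs between the conditions was not tested. Of 34 large adhesion receptors 9 were lower and 0 higher, of which Fat1 (-1.34 ± 0.28) and Celsr2 (-0.82 ± 0.24) passed and Lrp1 (-0.50 ± 0.17) did not. The motor gene Dync1h1 (-0.25 ± 0.17) did not pass either.

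In Sall1 mice 943 genes (9.8%) passed, 463 higher (4.81%) and 480 lower (4.99%). The pan-macrophage list had a median of 0.80 in Lyve1 mice against 2.0 in Sall1 mice. Oxidative phosphorylation had a median of 0.56 in Lyve1 and 0.39 in Sall1 mice, with 54 and 22 of 79 genes higher. Large adhesion receptors had a median of -0.90 in Lyve1 and -0.58 in Sall1 mice, with 24 and 10 of 34 lower. The difference between the lines passed for 0 of the 79 oxidative phosphorylation genes and 0 of the 34 adhesion receptors, where 0.218% of all genes passed, so that these zeros do not set the lists apart. At an unadjusted p under 0.05 in that edgeR test there were 587 genes. It passed for 12 of 23 microglial and 5 of 21 pan-macrophage genes, all with the smaller ratio in Lyve1 mice.

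**Figure D5:**
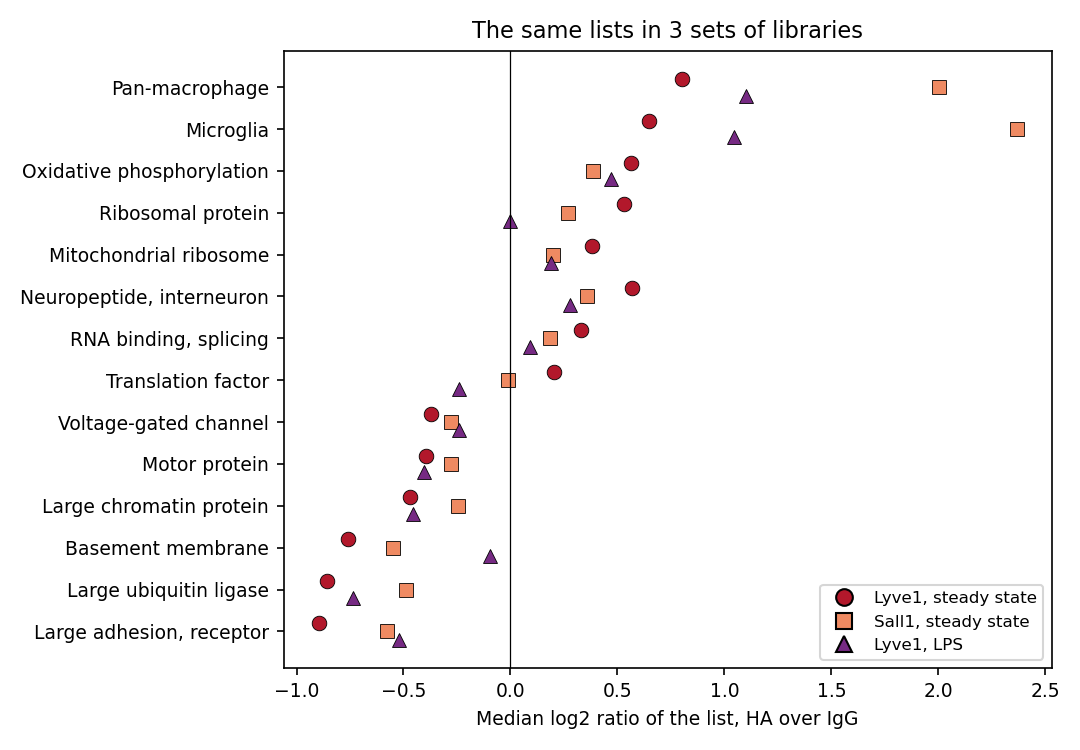
Median log2 ratio of HA over IgG of 14 gene lists (rows) in Lyve1 mice at steady state (circles), Sall1 mice at steady state (squares) and Lyve1 mice after LPS (triangles). The microglial and pan-macrophage lists lie farthest apart between the lines, at 0.65 and 0.80 in Lyve1 mice and 2.37 and 2.0 in Sall1 mice.

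In the authors' deposited table, 1165 genes were higher and 1326 lower in Lyve1 HA at an adjusted p under 0.05. Of the 2472 genes that passed here, 2368 were also under that threshold in the authors' deposited table with the same sign, and all 2472 had the same sign there.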

How the data were processed

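The authors deposited tables of raw counts per gene from MARS-seq libraries. The build was mm9, per the submitters' processing notes. Which aligner and counter were used is not given in the sources used here. Columns carry the group and 2 numbers, so each was assigned to its group and not to a sample, and 28 other library columns were not used. The authors' log2 ratios and adjusted p-values, from DESeq per the sheet name in the deposited file, were copied only for the comparison with their table.

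Counts were tested with edgeR 4.0.16 (R 4.3.3; TMM, filterByExpr with a minimum of 10, robust quasi-likelihood, Benjamini-Hochberg) in 1 fit of 24 steady-state libraries with 20 residual degrees of freedom, and LPS libraries in a fit of 20. Of 12580 listed genes, 9619 were tested, holding 99.04% of counts. On simulated data for the Lyve1 contrast over 9438 genes, 71 of 100 genes changed 2-fold and 92 of 100 changed 4-fold were recovered, with 7 false calls. The simulated libraries were drawn independently, with no effect shared by first number, so the 7 false calls need not hold for these data. Alternatives used DESeq2 1.42.0 and limma 3.58.1.

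Named genes were up to 15 per direction (at least 2-fold, mean count of at least 10, no overlap), up to 4 per list by smallest p, up to 5 per direction of the interaction, and promoter examples; 1 gene that this rule names is not reported here. Other genes named in the text belong to the lists and were picked with their values in view. The members and the 40 gene lists were chosen with earlier results of these data known. Symbols matched RefSeq directly for 12021 genes and by synonym for 529. Intervals cover counting error only.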

Additional observations from a re-analysis of the deposited data

Results flagged for a closer look

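For 7 genes named here the ratio of HA over IgG differed between Lyve1 and Sall1 mice in the edgeR interaction test. The log2 difference, Lyve1 minus Sall1, was 3.68 for Pf4, and it was -2.61 for Slc2a5, -2.41 for Bin2, -2.17 for Trem2, -2.02 for Tmem119, -2.0 for Laptm5 and -1.34 for C1qc.

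A single library stood apart from the other 5 of its group for 10 genes. In HA libraries, H2-Ab1 reached 168 CPM in library 2-1, against 4.56 to 38.3 CPM in the others, and Mmp9 reached 333 CPM in library 2-2, against 12.5 to 111 CPM. Sparc had 507 CPM and Cspg4 43.9 CPM in HA library 2-2, against 323 to 384 CPM and 17.2 to 27.2 CPM in the other HA libraries. Calb1 had 32.7 CPM and Eif3e 60.5 CPM in HA library 1-2, the shallowest, against 7.17 to 15.5 CPM and 22.8 to 36.8 CPM in the others. Psmd13 was lowest in HA library 2-1, at 145 CPM, against 173 to 183 CPM. In IgG libraries, Lamb1 had 40.9 CPM in library 2-1, Fat1 had 57.0 CPM in library 1-1, and Dennd4a was lowest in library 1-2 at 36.0 CPM. These were 10 of 220 gene and group combinations (4.55%), and chance flags about 1 in 20.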

How the results depend on the processing

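Within 1.5 times of the 2472 genes that passed in Lyve1 HA against IgG were the counts with DESeq2 size factors (2486), library totals (2477), no filter (2377), DESeq2 (2569), limma-voom (3045), only the groups compared (2937), and without the shallow libraries (1771, 804 higher and 967 lower). Leaving out 1 library gave 2071 to 2335. Summing libraries by first number left 1005 (386 higher and 619 lower), 4 in the difference between the lines and 443 after LPS; it leaves 3 sums a group. The first number as a block, added after seeing the data, gave 3147, 32 in the difference between the lines and 1381 after LPS. The replicate block on the full column number gave 2828 (1339 higher and 1489 lower), 23 and 1340. Same-numbered HA and IgG libraries correlated at 0.029 to 0.422 in their deviations, and 2 of 6 HA libraries correlated best with their own number, so pairing was not assumed. Leaving out 1 library gave 16 to 26 genes in the difference between the lines and 535 to 1102 after LPS, with 535 without LPS IgG 2-1, 548 without LPS IgG 1-1 and 567 without LPS HA 1-2.

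The median log2 ratio of the shortest spans (0.35) was 0.30 among genes at or below the median CPM and 0.20 with 3 classes, and that of the longest (-0.21) was -0.29 among genes above the median CPM and -0.15 at or below it. Ratios that did not pass changed sign for Fn1 (-0.16; -0.32 to 0.034 with 1 library left out, the highest without HA 3-1) and H2-Ab1 (1.33; -0.18 to 1.56, the lowest without HA 2-1). The cause was not tested. Protein length was not run.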
